A study of Oryza sativa with 2 samples.

Results

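Plants take up phosphorus as inorganic phosphate. PHT1 proteins are plasma membrane transporters that carry phosphate into cells together with protons, and PHO1 proteins export phosphate from cells, which in rice roots loads it into the xylem for delivery to the shoot. PHT1 proteins also take part in moving phosphate between leaves and other organs. The results below describe 5 genes of these families, 3 PHT1 and 2 PHO1 genes, out of the 17905 rice genes to which at least 1 probe set of the array is assigned. Each gene was taken by 1 named probe set of the deposited table. In all 5 this is the gene's brightest or sole probe set.

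The plants were LRK1 transgenic 9311 rice, labelled LRK1 060615, and, as the control, 9311 rice without the transgene. LRK1 encodes a receptor-like kinase with leucine-rich repeats. The sources used here give neither its promoter nor the number of transgenic lines, nor whether the RNA of the plants was pooled. Leaves were sampled at 6 weeks from 10 plants of each genotype, kept in a greenhouse at 28 °C with 14 h of light and 10 h of dark and given no treatment. Total RNA was hybridised to 1 Affymetrix rice GeneChip per genotype.

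With 1 array per genotype there is no replicate error and no test, and precision is limited by the number of arrays. Each difference below compares these arrays, and each log2 ratio is LRK1 transgenic over control 9311. Values are log2 MAS5 signals, MAS5 being Affymetrix's method of summarising the probes of a probe set on 1 array. A probe set counted as measured on an array where its signal reached a floor of 5.40, the median log2 signal over both arrays, which is a linear signal of 42.1. A call of higher or lower needed a signal measured on both arrays and a difference of 2-fold or more. A probe set was called present on 1 array only where its signal there was at least 2 times the floor, a log2 signal of 6.40, and its signal on the other array was below the floor. Signals of different probe sets are not set against each other, because each probe set has its own response.

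The arrays differed as a whole. The median log2 signal over 57258 probe sets was 5.56 on the transgenic and 5.21 on the control array. Spike controls are RNAs added during the procedure. The 63 spike control probe sets that reached the floor on at least 1 array had a median log2 ratio of 0.34. Several of these probe sets read the same RNA, so they are not independent. The ratio of 3′ to 5′ signal, a sign of RNA integrity, was lower on the transgenic array in 6 of 6 housekeeping pairs, of which 2 share a 5′ probe set (0.782 to 16.2 on the transgenic array and 0.831 to 16.4 on the control array). The 4 leaf marker genes with a probe set, RBCS, CAB2R, PSAH and RCA, had log2 signals of 15.47 to 16.24 on the transgenic array and 14.44 to 15.78 on the control array. As deposited all 4 were higher on the transgenic array, with log2 ratios of 0.46 to 1.03 and a median of 0.50. Of these, 1 was called higher, PSAH, against 6.82% of the genes measured on both arrays. Of 3 root markers with a probe set, LSI2 was below the floor on both arrays, NIP2-1 had log2 signals of 10.50 on the transgenic and 10.40 on the control array, and NAAT1 had 13.59 on the transgenic and 13.76 on the control array. The anther markers RTS and C6 were below the floor on both arrays. Fewer cells of a type and less RNA per cell cannot be told apart in whole leaves.

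One gene name needs a remark before the values. The probe set chosen for PHT1-2 is assigned to LOC4335115 on chromosome 4, whose names in the gene table of assembly ASM3414082v1 are OsPht1;4, OsPT4 and PHT1-4 as well as PHT1-2. The gene that carries the names OsPht1;2 and OsPT2 is LOC4331637 on chromosome 3, with another probe set, so the gene on chromosome 4 is called LOC4335115 below. The ID of its probe set ends in _x_at, which marks probes that can bind other transcripts.

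PHO1-2 and PHT1-1 were called higher on the transgenic array, by 4.41-fold and 2.67-fold, and LOC4335115, PHT1-11 and PHO1-3 were not called. Thus 2 of 5 genes were called higher, against 8.36% of the 24426 probe sets measured on both arrays, and 0 of 5 were called lower, against 9.95%. Of the 13526 genes measured on both arrays by their brightest probe set, 6.82% were called higher and 11.1% lower. All 5 genes were measured on both arrays, so none was called present on the transgenic array only, as 981 probe sets were (1.71% of all), or on the control array only, as 617 were (1.08%). As deposited all 5 ratios were positive, with a median of 0.56, while the measured probe sets had a median of 0.08 and 54.7% positive ratios. The ratios of PHT1-11 and PHO1-3 turned negative when the arrays were centred on the spike controls, and that of PHT1-11 also after quantile normalization and loess.

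**Figure D1:**
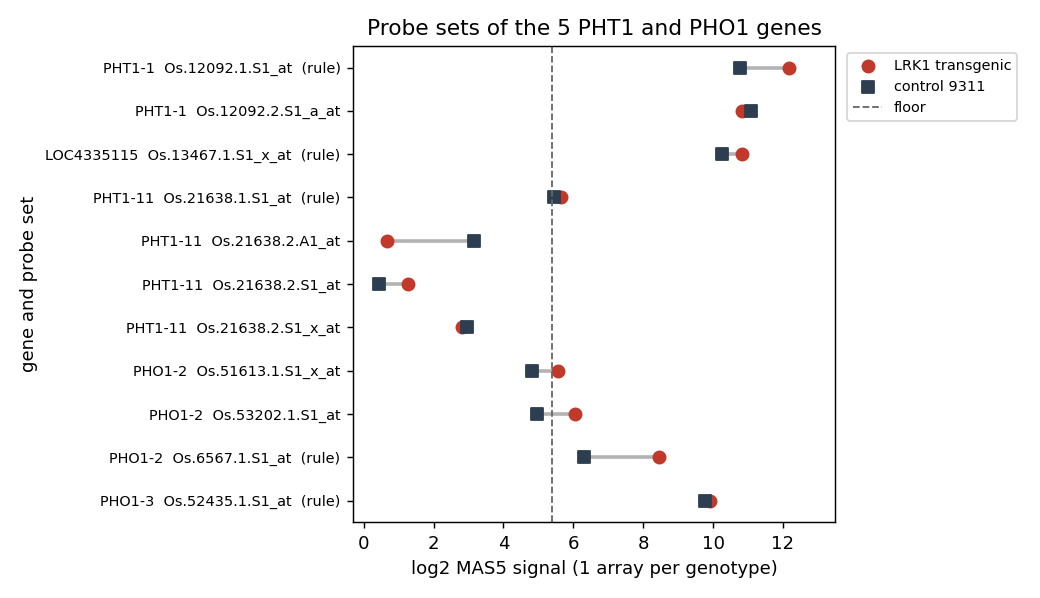
Log2 MAS5 signal (x axis) of the 11 probe sets assigned to the 5 genes (rows), on the LRK1 transgenic array (circles) and the control 9311 array (squares), with 1 array per genotype. The probe sets that define the 5 genes are marked "rule", and the dashed line is the floor of 5.40; the PHO1-2 circle lies furthest right of its square among those measured on both arrays, and the PHT1-1 probe sets go opposite ways.

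Among the exporters, PHO1-2 (LOC4331090, chromosome 2), which in rice loads phosphate into the root xylem, had a log2 signal of 8.45 on the transgenic array and 6.30 on the control array. In linear signal this was 349 on the transgenic and 79.0 on the control array. The control value lay 0.91 log2 units above the floor, so the fold rests on a dim control signal. Its log2 ratio of 2.14 was exceeded by 0.504% of the probe sets measured on both arrays. Ratios were more scattered at this brightness than at that of PHT1-1, and of the 3517 measured probe sets whose mean log2 signal lay within 0.5 of that of PHO1-2, 10.9% were higher by at least 2-fold and 12.7% lower by at least 2-fold.

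The other probe sets of PHO1-2 gave the same direction. A dimmer one had log2 signals of 6.06 on the transgenic and 4.97 on the control array, a difference of 1.09. The dimmest, whose ID ends in _x_at, had 5.56 on the transgenic and 4.80 on the control array, a difference of 0.76. Each was above the floor on the transgenic array and below it on the control array, and neither reached the 6.40 needed to be called present on the transgenic array only. The 3 probe sets thus agreed in direction, and the call of PHO1-2 came from the brightest of them.

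PHO1-3 (LOC4341088, chromosome 6), the other gene of this family in the set, had log2 signals of 9.92 on the transgenic and 9.77 on the control array, or linear signals of 969 (transgenic) and 874 (control). Its ratio of 0.15 lay between the lower and upper quartiles of the 3545 measured probe sets of like brightness, -0.47 and 0.43. It has 1 probe set. PHO1-1 has no probe set in the annotation used here, so the PHO1 family is represented by these genes alone.

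Among the importers, PHT1-1 (LOC4331635, chromosome 3), which in rice takes up phosphate in roots and is also abundant in shoots, had log2 signals of 12.18 on the transgenic and 10.76 on the control array, or linear signals of 4646 (transgenic) and 1738 (control). Both lay far above the floor. Its log2 ratio of 1.42 was exceeded by 2.80% of the measured probe sets, and of 2405 probe sets of like brightness 6.53% were at least 2-fold higher.

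The second probe set of PHT1-1 did not show this difference. It had log2 signals of 10.84 on the transgenic and 11.09 on the control array, a ratio of -0.25, also far above the floor. The probe sets of PHT1-1 therefore differed by 1.67 in log2 ratio. Among 1951 genes for which 2 or more probe sets were measured, the brightest pair differed by a median of 0.32, and by as much as that of PHT1-1 in 57 (2.92%). Of the 130 such genes whose brightest probe set was at least 2-fold higher, 67 (51.5%) had the second also at least 2-fold higher and 13 (10.0%) had a negative second ratio. One more probe set carries the same cluster number in its ID but is assigned to another gene, LOC4324784, and had log2 signals of 12.19 on the transgenic and 11.57 on the control array. The gene table lists 1 transcript of PHT1-1, and which stretch of it each probe set reads was not analysed here. The 3′ to 5′ ratios given above also differed between the arrays, and their part in the disagreement was not tested.

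LOC4335115, named PHT1-2 and PHT1-4 in the gene table, had log2 signals of 10.82 on the transgenic and 10.26 on the control array, or linear signals of 1810 (transgenic) and 1226 (control). OsPT4 is a phosphate importer of rice roots, leaves and embryos. The difference of 1.48-fold was below the 2-fold rule, and 23.1% of the measured probe sets had a higher ratio. The gene has this probe set alone.

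PHT1-11 (LOC4324187, chromosome 1) is known in rice for its induction in roots colonised by mycorrhizal fungi, where it imports the phosphate that the fungus delivers. Its log2 signals were 5.64 on the transgenic and 5.44 on the control array, which is 0.25 (transgenic) and 0.04 (control) above the floor. Neither array reached the floor on any of its 3 other probe sets, which had log2 signals of 0.68 to 2.81 on the transgenic and 0.44 to 3.17 on the control array. PHT1-11 thus lay close to the floor in these leaves. Its log2 ratio of 0.20 lay between the quartiles of 1720 measured probe sets of like brightness, -0.21 and 0.44. Those probe sets had to reach the floor on both arrays, which cuts off large ratios so close to it. The quartiles therefore understate the scatter of dim signals.

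**Figure D2:**
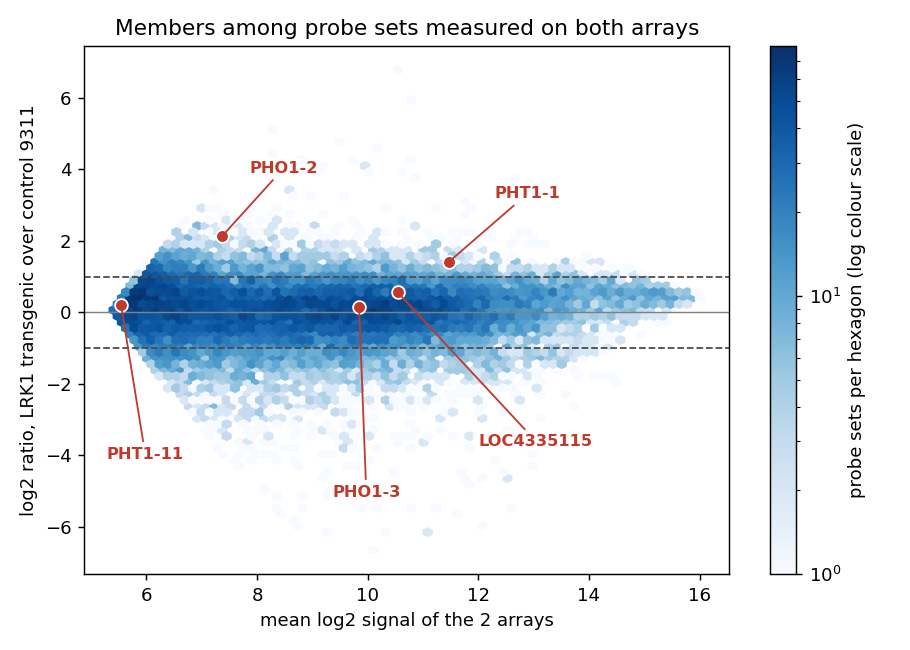
Log2 ratio of LRK1 transgenic over control 9311 (y axis) against the mean log2 signal of the 2 arrays (x axis) for the 24426 probe sets measured on both arrays, shaded by number per hexagon on a log colour scale. The dashed lines are the 2-fold rule; PHO1-2 and PHT1-1 lie above the upper line, while LOC4335115, PHO1-3 and PHT1-11 lie in the dense band around 0.

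The calls of PHO1-2 and PHT1-1 held under each of 4 other scalings of the arrays. The log2 ratio of PHO1-2 ran from 1.80 to 2.14 over these and the deposited values, and that of PHT1-1 from 1.08 to 1.43, in both cases lowest with the arrays centred on the spike controls. With spike centring 2 of 5 genes were again higher, against 3.59% of measured probe sets, and 0 were lower, against 17.1%. The ratio of LOC4335115 stayed positive, from 0.22 to 0.59. PHT1-11 ran from -0.13 to 0.20 and PHO1-3 from -0.19 to 0.20, so the scaling decided their signs. With a 3-fold rule the call of PHT1-1 was lost, leaving 1 of 5 higher against 1.92%. With the higher floor, at the 75th percentile of signals, the control signal of PHO1-2 did not reach it and the call was lost, leaving 1 of the 3 genes still measured on both arrays higher, against 5.94%.

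**Figure D3:**
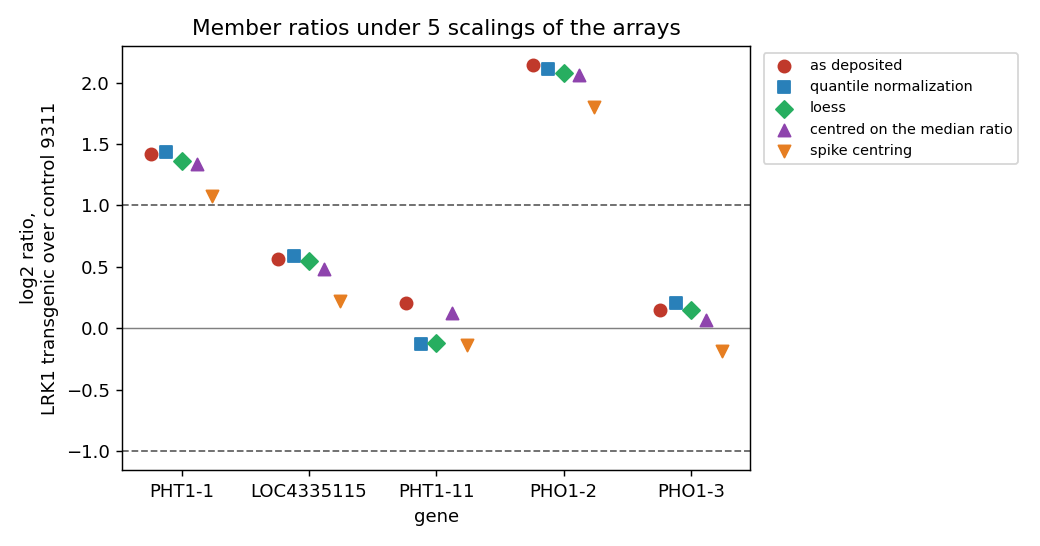
Log2 ratio of LRK1 transgenic over control 9311 (y axis) of each of the 5 genes (x axis) as deposited and under quantile normalization, loess, centring on the median ratio and centring on the spike controls (symbols). The dashed lines are the 2-fold rule; PHO1-2 and PHT1-1 stay above it under all 5 scalings, and PHT1-11 and PHO1-3 change sign.

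The gene table names 12 PHT1 genes, of which 9 have a probe set and 5 were measured on both arrays by their brightest probe set. PHT1-1 was the 1 called higher and 0 were called lower, against 6.82% and 11.1% of the 13526 genes measured in the same way. The median log2 ratio of these 5 was 0.33 as deposited, beside 0.02 for all measured genes. With spike centring, which lowered every ratio by 0.34, it was -0.01, beside -0.26 for all measured probe sets (0.08 as deposited). PHT1-8 (LOC4348741), a high-affinity phosphate transporter of rice, had log2 signals of 9.60 on the transgenic and 9.90 on the control array, and on a second probe set 9.17 on the transgenic and 9.64 on the control array. PHT1-3 (LOC4348740) had 6.32 on the transgenic and 5.99 on the control array by its brightest probe set. Another of its probe sets had 6.07 on the transgenic and 2.62 on the control array, which is above the floor on the transgenic array but short of a call.

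The remaining PHT1 genes were at or below the floor. PHT1-6 (LOC4346342), a high-affinity transporter of rice, had log2 signals of 5.48 on the transgenic and 2.19 on the control array, with the transgenic value just above the floor. LOC4331637, the gene named OsPht1;2, had 3.28 on the transgenic and 2.08 on the control array. PHT1-12 (LOC4331634) had 2.84 on the transgenic and 4.33 on the control array. PHT1-7 (LOC4331542) had 2.65 on the transgenic and 4.88 on the control array by the brighter of its probe sets. PHT1-12 and LOC4331637 are the protein-coding genes next to PHT1-1 on either side in the gene table, and neither reached the floor on an array. LOC4335115 likewise lies next to PHT1-13, which has no probe set in the annotation used here.

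**Figure D4:**
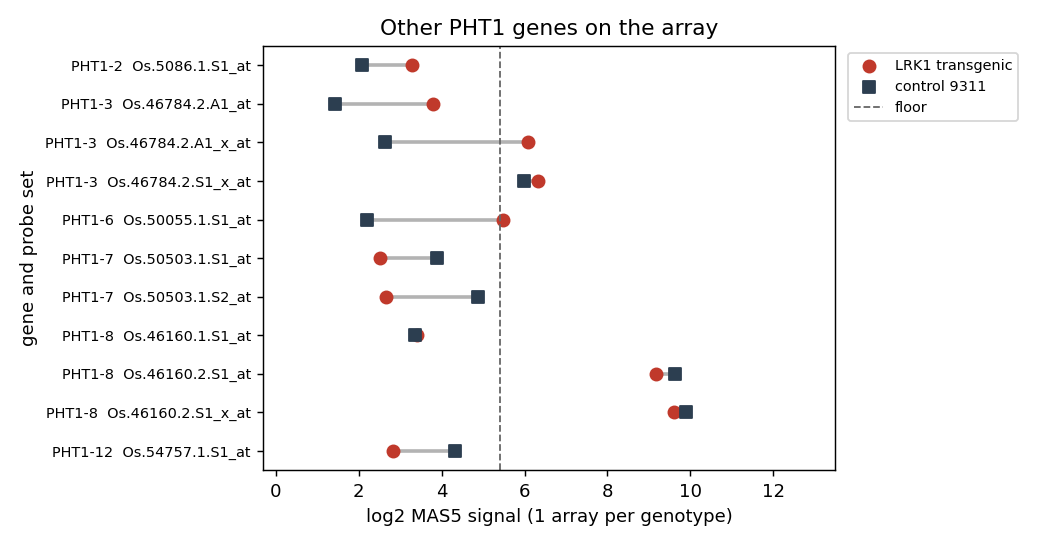
Log2 MAS5 signal (x axis) of the 11 probe sets assigned to the 6 other PHT1 genes with a probe set (rows; the row PHT1-2 is LOC4331637), on the LRK1 transgenic array (circles) and the control 9311 array (squares), with the floor of 5.40 as a dashed line. Only 2 probe sets of PHT1-8 and the brightest of PHT1-3 were above the floor on both arrays.

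Phosphate supply controls many of these transporters through PHR factors, which activate phosphate starvation genes, and SPX proteins, which hold PHR factors back when phosphate is plentiful. Of 13 listed genes of this response with a probe set, 9 were measured on both arrays, 1 was called higher and 0 lower, beside the 6.82% and 11.1% of all measured genes given above, with a median log2 ratio of 0.28. The count of lower calls depended on the scaling. It was 1 after quantile normalization (10.7% of all measured genes), 2 when centred on the median ratio (12.8%), 3 after loess (12%) and 3 with spike centring (19.1%). The median ratio was 0.27 after loess, beside 0.02 for all measured probe sets, and -0.06 with spike centring, beside -0.26. The gene called higher was ARF12 (LOC4337363), an auxin response factor of rice that has been linked to phosphate balance, with log2 signals of 8.43 on the transgenic and 7.01 on the control array. SPX1 (LOC4341465) had 10.89 on the transgenic and 11.84 on the control array, and SPX2 (LOC4328654) had 11.48 on the transgenic and 12.47 on the control array, both just short of 2-fold. SPX5 (LOC4333078) had 5.83 on the transgenic and 6.70 on the control array by its brightest probe set, close to the floor. Its other probe set had 5.05 on the transgenic and 6.43 on the control array, and was called present on the control array only. SPX4 (LOC4334647) went the other way by its brightest probe set, with 9.71 on the transgenic and 9.07 on the control array, while its dimmer probe set had 6.40 on the transgenic and 6.73 on the control array. SPX3 was below the floor on both arrays. MGD2 (LOC4345212) had 3.26 on the transgenic and 6.03 on the control array, which is above the floor on the control array but short of a call. PHR1 (LOC4332726) and PHR2 by its brightest probe set had 10.72 and 11.68 on the transgenic array, against 10.44 and 11.11 on the control array. The dimmer probe set of PHR2 had 9.62 on the transgenic and 9.49 on the control array. PHR3 (LOC4328249) went the other way, with 8.44 on the transgenic and 8.80 on the control array.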

How the data were processed

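The authors deposited a log2 signal for each probe set on each array. Per the submitters' processing notes the tool was MAS5; the sources used here give no version or scaling target. That the scale is log2 follows from the range of the values, 0 to 16.24. Of the deposited probe sets, 123 array controls were left out. Probe sets were assigned through the platform annotation: 22436 had 1 gene, 95 several and 34727 none in the table used, and all 17905 genes were found in the gene table of ASM3414082v1, of which no coordinates are printed. For counts over genes, the probe set with the highest mean signal was used. Genotype labels gave the groups, and no test was run.

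The alternatives were quantile normalization, loess (span 0.4), centring on the median ratio or on the spike controls, floors at the 25th and 75th percentiles, a pseudocount of 16, rules of 1.5-fold and 3-fold, and other probe sets of a gene. The 5 genes and the lists were chosen with earlier results of these data known. Named were the 5 genes, the other PHT1 and PHO1 genes with a probe set and up to 4 response genes past 2-fold per direction. The SPX genes, PHR1, PHR2, PHR3, MGD2 and LOC4324784 were added after their values were seen. VPE1, PHP1 and MYB2, which name genes of other functions in the gene table, were left out. Planned PHT2, PHT3, PHT4 and vacuolar transporters gave no gene with a probe set. Python 3.11.15, pandas 2.3.3 and statsmodels 0.14.6 were used.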

Additional observations from a re-analysis of the deposited data

How the results depend on the processing

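Of 51 recomputed values, leaving out ratios under other floors, which a floor cannot change, 44 stayed within the spread used here: 0.48 in log2 ratio, the SD of 1 probe set from pairs of probe sets of the same gene, or 1.5 times for a count. Centring on the median ratio or the spike controls subtracted 0.08 or 0.34 from every ratio. Both are below 0.48, so centred ratios stayed within it by construction. The sign changes of PHT1-11 and PHO1-3 also counted as within it. The ratio of PHT1-1 turned to -0.25 on its other probe set and was 0.58 as the median over both. The ratio of PHO1-2 was 1.09 as the median over its probe sets, which is the value of the middle one, and 0.76 on the dimmest. These single probe sets were chosen after seeing the data. The number of genes called higher was 1 rather than 2 with the 3-fold rule and with the higher floor (75th percentile), since fewer probe sets can pass either. It was 2 after quantile normalization (8.37% of measured probe sets), loess (7.11%), centring on the median ratio (6.73%) and spike centring (3.59%). With the lower floor (15.6%) and the pseudocount (6.85%) it was also 2. It was again 2 with the 1.5-fold rule, for which no share was computed, and without _x_at probe sets. A lower floor or a lower fold rule cannot lose a call of higher. Leaving out _x_at probe sets removed only LOC4335115, which was not called. The number called lower was 0 under these alternatives and those above. Where a share of measured probe sets called lower was computed, it ran from 8.09% (higher floor) to 17.1% (spike centring). Counts were not recomputed over other probe sets of a gene, where neither PHT1-1 nor PHO1-2 passed the call rule on a single one. LOC4335115 and PHO1-3 have 1 probe set each, so no median over probe sets could be taken. No paired analysis was possible because there is 1 array per genotype. Closeness to the floor limits PHT1-11 and the control value of PHO1-2 most.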
